A study of Mus musculus with 6 samples.

Results

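The EGF receptor ligands, their ERBB receptors and the receptor inhibitor Errfi1 were followed in tick-bitten ear skin of mice that have or lack adiponectin, a hormone of fat cells. The 10 genes were taken from the deposited table by their symbols, and all 10 were found among its 15667 genes. They were the ligand genes Areg, Ereg, Hbegf, Tgfa, Btc and Epgn, the receptor genes Egfr, Erbb2 and Erbb3, and Errfi1. Skin was taken from 3 wild-type mice (WT, genotype Adipo+/+) and 3 adiponectin-deficient mice (KO, genotype Adipo-/-). The KO mice were B6;129-Adipoqtm1Chan/J animals, which carry a null allele in every cell, and the WT mice were their littermates. All were females of 7 to 8 weeks, and in both groups Ixodes scapularis nymphs (10 per mouse) had been placed for 48 h before a single punch was taken from the bitten ear. Each library stood for a single mouse, and skin without a bite was not analysed here. Values are CPM, the counts of a gene per 1000000 reads of its library. Every fold change compares KO with WT as a difference of log2(CPM + 0.5), so for genes near 0 the printed change is smaller than the change in CPM.

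The ligands are made as membrane-anchored precursors that metalloproteases cut free at the cell surface. A freed ligand binds EGFR or a related ERBB receptor, the receptors join in dimers, and their kinase domains start signalling through the RAS and ERK kinases. In the epidermis keratinocytes both make and sense these ligands, which are known for driving keratinocyte growth and movement when a wound closes.

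The libraries held between 3403706 (KO replicate 3) and 6591514 (KO replicate 1) implied reads, so that 3 reads equalled 0.455 to 0.881 CPM. Adipoq, the targeted gene, was at 30.5, 63.7 and 49.6 CPM in the WT libraries and at 0, 0.560 and 0 CPM in the KO libraries, so each library matched its label. All 6 marker genes of ear skin (Krt5, Krt14, Krt10, Col1a1, Dcn and Pecam1) were found, with summed values of 19237 to 32119 CPM. Libraries differed within a group in hair follicle genes (16 of 16 found), which summed to 51.8, 67.9 and 23716 CPM in WT replicates 1, 2 and 3 and to 1937, 9403 and 1029.9 CPM in KO replicates 1, 2 and 3. All 16 were highest in WT replicate 3, and 11 of them (among them Krt25, Krt71 and Krt31) were at 0 in at least 1 library. Libraries also differed in genes of wound keratinocytes (7 of 7 found), with sums of 12475, 6295 and 1481 CPM in the WT libraries and of 6263, 1561 and 3608 CPM in the KO libraries. All 7 were highest in WT replicate 1.

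Of the ligand genes, 4 lie on chromosome 5 (GRCm38): Epgn at 91027517-91035212, Ereg at 91074617-91093649 and Areg at 91139599-91148432, all on the + strand, and Btc at 91357261-91402994 on the − strand. Ereg starts 39.4 kb past the end of Epgn, Areg 45.9 kb past the end of Ereg, and Btc 208.8 kb past the end of Areg. RefSeq promoters (GRCm38.p6) were matched for 7 of the 10 genes. The 250 bases before the start are printed 5′ to 3′ for Areg and Epgn, the ligand genes on either side of Ereg whose means were lower in KO, and for the promoter of Errfi1 that shares its motifs with that of Areg. Capitals mark a cAMP response element (TGACGTCA) or a TATA box (TATAAA).
Areg, chr5:91139349-91139598, + strand: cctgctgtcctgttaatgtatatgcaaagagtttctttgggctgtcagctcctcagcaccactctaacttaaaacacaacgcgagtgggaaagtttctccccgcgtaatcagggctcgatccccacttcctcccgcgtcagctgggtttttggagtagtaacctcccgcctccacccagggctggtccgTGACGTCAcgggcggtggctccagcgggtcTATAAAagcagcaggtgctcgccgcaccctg
Epgn, chr5:91027267-91027516, + strand: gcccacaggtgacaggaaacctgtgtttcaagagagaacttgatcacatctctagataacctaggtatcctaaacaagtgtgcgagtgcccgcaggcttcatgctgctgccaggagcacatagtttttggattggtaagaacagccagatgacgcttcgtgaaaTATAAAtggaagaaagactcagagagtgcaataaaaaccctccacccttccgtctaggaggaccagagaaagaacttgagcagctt
Errfi1, chr4:150854820-150855069, + strand: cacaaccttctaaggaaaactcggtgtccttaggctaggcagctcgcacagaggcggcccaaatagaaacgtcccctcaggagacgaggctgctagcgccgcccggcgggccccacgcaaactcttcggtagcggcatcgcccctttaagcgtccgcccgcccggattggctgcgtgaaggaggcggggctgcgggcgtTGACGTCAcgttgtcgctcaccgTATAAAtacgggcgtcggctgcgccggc
In Areg the cAMP response element began 61 bases and the TATA box 31 bases before the start. In this Errfi1 promoter they began 51 and 28 bases before the start. That start lies inside the span of Errfi1 in the deposited data, which begins at 150853796. Epgn had a TATA box 86 bases before the start and no cAMP response element. The promoters of Tgfa, Btc, Egfr and Erbb2, and a second one of Errfi1 directly before that span (chr4:150853546-150853795), held neither motif. The AP-1 element TGANTCA was in none of the 8 sequences matched to these 7 genes. Searched on both strands, the cAMP response element was in 1.55%, the AP-1 element in 6.75% and the TATA box in 12.4% of 32851 RefSeq promoters of the same length. These matches describe letters in a window, not factor binding.

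Of the 10 genes, only Areg and Ereg had groups that did not overlap, Areg being lower and Ereg higher in KO. Areg encodes amphiregulin, a ligand of EGFR alone. Areg was at 28.6, 6.51 and 4.62 CPM in WT replicates 1, 2 and 3 and at 3.03, 2.24 and 1.18 CPM in KO replicates 1, 2 and 3. All 3 KO values lay below all 3 WT values, and the range in WT was wide because of replicate 1. The counts were small, at 118, 32 and 28 implied reads in WT and 20, 8 and 4 in KO. The mean was 13.2 ± 13.3 CPM (SD, n = 3) in WT and 2.15 ± 0.933 CPM (SD, n = 3) in KO, so that the KO mean was 16.3% of the WT mean. The log2 fold change was -2.00 (SE 0.64, 95% interval -3.48 to -0.52), with an unadjusted p of 0.0144 and an adjusted p of 0.998 by limma over 14306 genes. Without WT replicate 1 it was -1.24 (unadjusted p = 0.0246 by limma), and without KO replicate 3 it was -1.70 (unadjusted p = 0.0555 by limma). In bulk skin, fewer cells that make a transcript and less of it per cell cannot be told apart.

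Ereg, which encodes epiregulin, a ligand of EGFR and ERBB4, was the only one of the 10 with KO values all above the WT values. It was at 74.6, 101 and 96.6 CPM in WT and at 131, 105 and 130.2 CPM in KO. The spread within each group was narrow, the highest WT value being 1.36 times the lowest, and KO replicate 2 came close to WT replicate 2. The log2 fold change was 0.43 (SE 0.15, 95% interval 0.07 to 0.78), with an unadjusted p of 0.0235 and an adjusted p of 0.998 by limma. It was 0.29 without WT replicate 1 (unadjusted p = 0.0690 by limma), 0.37 without KO replicate 1 (unadjusted p = 0.0770) and 0.38 without KO replicate 3 (unadjusted p = 0.0790). Ereg shares 141 exon bases with the antisense gene Gm19610, whose reads could not be told from its own where counting ignored strand. The same limit holds for Tgfa, which shares 118 exon bases with Gm43917, and for Erbb2, which shares 9 with Mien1.

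Epgn and Hbegf had the largest ratios of the highest to the lowest WT value. Epgn encodes epigen, a ligand of EGFR. It was at 64.1, 18.9 and 3.13 CPM in WT and at 7.43, 1.96 and 4.70 CPM in KO. WT replicate 3 lay inside the KO range, and the highest WT value was 20.5 times the lowest. The KO mean was 16.4% of the WT mean, where that of Areg was 16.3%. The log2 fold change of Epgn was -1.83 (SE 0.95), its 95% interval of -4.03 to 0.37 included 0, and the unadjusted p was 0.0907 by limma. It was -0.85 without WT replicate 1, and -2.92 without WT replicate 3 (unadjusted p = 0.000838, adjusted p = 0.184 by limma). Without KO replicate 2 it was -1.37.

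Hbegf (chr18:36504927-36515805, − strand) encodes heparin-binding EGF-like growth factor, a ligand of EGFR and ERBB4 known for early wound responses. It was at 83.0, 32.8 and 12.2 CPM in WT and at 29.6, 10.9 and 12.6 CPM in KO. The groups overlapped, with replicate 1 highest in each. The log2 fold change was -0.99 (SE 0.65, 95% interval -2.50 to 0.53, unadjusted p = 0.170 by limma). It was -0.31 without WT replicate 1 and -1.67 without WT replicate 3 (unadjusted p = 0.00673 by limma).

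Tgfa and Btc were also lower on average in KO, with overlapping groups. Tgfa (chr6:86195227-86275743, + strand), which encodes the EGFR ligand TGF-alpha, was at 108, 64.5 and 108 CPM in WT and at 73.3, 78.2 and 59.6 CPM in KO. Only WT replicate 2 reached into the KO range. The log2 fold change of Tgfa was -0.38 (SE 0.22, 95% interval -0.87 to 0.12, unadjusted p = 0.120 by limma), and it was -0.62 without WT replicate 2 (unadjusted p = 0.00529 by limma). Btc, which encodes betacellulin, a ligand of EGFR and ERBB4, was at 11.4, 25.6 and 26.0 CPM in WT and at 5.61, 19.6 and 9.40 CPM in KO. Unlike the other low ligands, it was lowest among WT libraries in replicate 1. Its log2 fold change was -0.92 (SE 0.48, 95% interval -2.02 to 0.18, unadjusted p = 0.0899 by limma). It was -1.30 without WT replicate 1 (unadjusted p = 0.0270 by limma), -1.38 without KO replicate 2 (unadjusted p = 0.0136) and -0.52 without KO replicate 1.

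**Figure D1:**
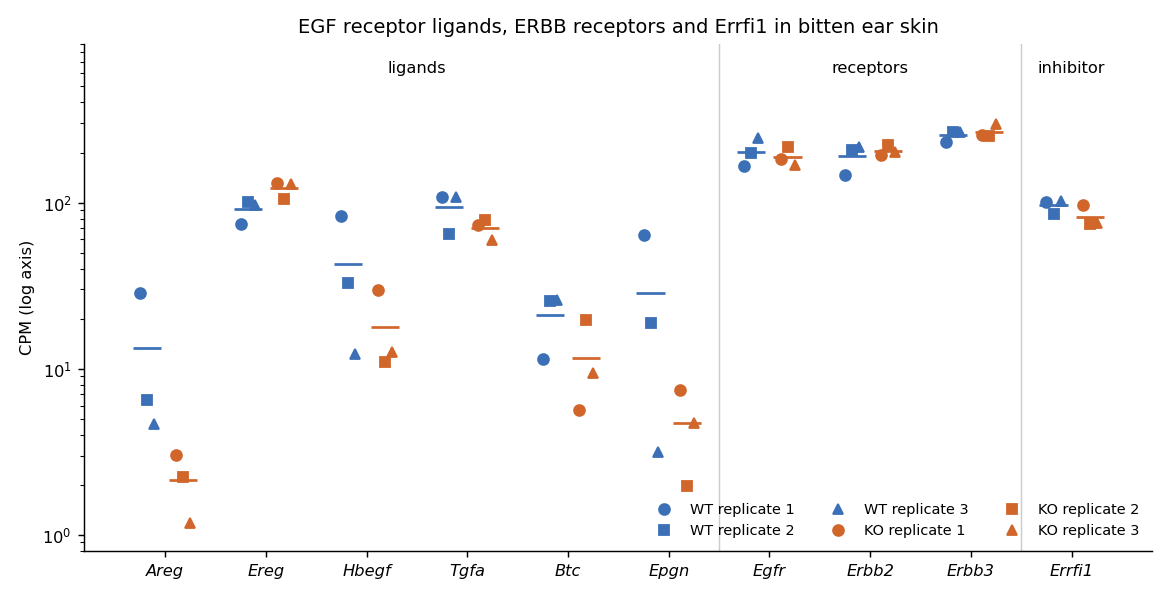
CPM of each gene on a log axis in the 3 WT and 3 KO libraries; each point is a library, its shape the replicate number, and the short line the group mean. Areg is the gene with every KO point (1.18 to 3.03 CPM) under every WT point, Ereg the gene with every KO point above, and the receptors lie between 147 and 295 CPM in all libraries.

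The receptor transcripts varied little. Egfr (chr11:16752203-16913907, + strand), the receptor that binds all 6 ligands, was at 165, 198 and 244 CPM in WT and at 183, 215 and 168 CPM in KO, with KO values inside the WT range. Its log2 fold change was -0.09 (95% interval -0.46 to 0.29, unadjusted p = 0.598 by limma). Erbb2 (chr11:98412484-98437716, + strand), whose protein binds no known ligand and acts as the partner of the other receptors, was at 147, 206 and 216 CPM in WT and at 193, 221 and 200.4 CPM in KO. Its log2 fold change was 0.13 (95% interval -0.23 to 0.49, unadjusted p = 0.439 by limma). Erbb3 (chr10:128567523-128589635, − strand), a receptor for neuregulins with little kinase activity of its own, was at 233, 264 and 266 CPM in WT and at 254, 251 and 295 CPM in KO. Its log2 fold change was 0.07 (95% interval -0.18 to 0.32, unadjusted p = 0.550 by limma), and it had the narrowest WT range of the 10 genes, the highest value being 1.14 times the lowest. The 3 intervals leave room for a change of up to 1.40-fold upward (Erbb2) or to 0.725 of the WT level (Egfr). The sign of each turned when a single library was left out: Egfr was at 0.054 without WT replicate 3, Erbb2 at -0.046 without WT replicate 1 and Erbb3 at -0.0065 without KO replicate 3.

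Errfi1 (chr4:150853796-150868889, + strand) encodes an inhibitor that binds the EGFR kinase domain and is itself induced by EGFR signalling. It was at 101, 84.8 and 102 CPM in WT and at 97.1, 74.0 and 74.9 CPM in KO. KO replicate 1 lay inside the WT range and the other KO libraries below it. The log2 fold change was -0.23 (SE 0.14, 95% interval -0.56 to 0.10, unadjusted p = 0.144 by limma), and -0.36 without KO replicate 1 (unadjusted p = 0.0321 by limma).

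Of the 10 genes, 1 was lower (Areg) and 1 higher (Ereg) in KO at an unadjusted p below 0.05 by limma. Among all 14306 genes tested the corresponding shares were 1.82% lower and 1.06% higher. The study had already named Areg among the genes down-regulated in KO from RNA-seq of this skin. The call of Areg and its lack of overlap are therefore no independent evidence. None of the 10 was called at an adjusted p below 0.05, a level that 0.014% of all genes reached. With limma voom on the implied reads 0 were called as well, and at an unadjusted p below 0.05 it gave Btc as lower and Ereg as higher, with Areg at -1.93 (unadjusted p = 0.0736). KO values did not overlap WT values in 2 of the 10 genes, against 7.84% of all genes (4.89% with KO below and 2.95% with KO above). The median log2 fold change was -0.30 over the 10 genes and -0.95 over the 6 ligands, of which 5 were negative, and -0.03 over all genes, of which 56.7% were negative. Under the 3 other scalings tried (median of ratios, quantile normalization and a total without the ribosomal RNA gene Rn45s), Areg stayed below and Ereg above without overlap.

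**Figure D2:**
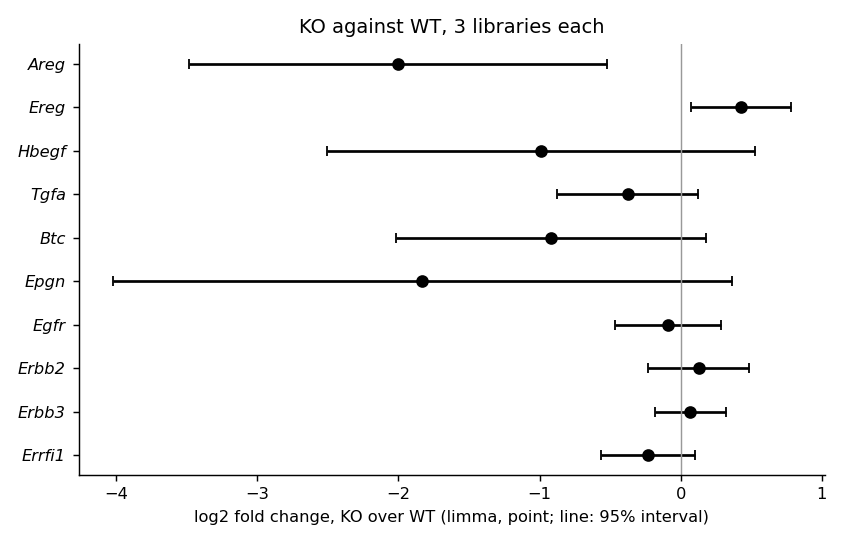
log2 fold change of KO over WT for each gene, with the point from limma and the line its 95% interval. The intervals of Areg (-3.48 to -0.52) and Ereg (0.07 to 0.78) leave out 0, the other 8 include it, and that of Epgn is the widest.

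Levels of different genes were compared per kb of exon (GENCODE M21). In WT the order ran from Erbb3 (42.3 ± 3.12 CPM per kb, SD, n = 3) and Erbb2 (36.4 ± 7.14) through Errfi1 (26.8 ± 2.703), Ereg (22.0 ± 3.46), Egfr (17.9 ± 3.49), Epgn (15.9 ± 17.5), Tgfa (14.4 ± 3.85), Areg (10.9 ± 10.96) and Hbegf (8.82 ± 7.54) to Btc (4.65 ± 1.85). The ranges of every gene and the next in this order overlapped in WT. In KO, Erbb3 (44.4 ± 4.07) and Erbb2 (39.3 ± 2.73) came first and overlapped each other. Ereg (29.6 ± 3.67) and Errfi1 (22.9 ± 3.65) followed, then Egfr (16.7 ± 2.13) and Tgfa (10.8 ± 1.48), and ranges in this sequence did not overlap except those of Ereg and Errfi1. Hbegf (3.66 ± 2.13), Epgn (2.60 ± 1.51), Btc (2.55 ± 1.60) and Areg (1.77 ± 0.768) formed the low end in KO, below the range of Tgfa, and each overlapped the next.

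The 6 ligands together summed to 113, 62.8 and 53.8 CPM per kb in WT replicates 1, 2 and 3, and to 57.1, 46.9 and 49.0 CPM per kb in KO. These sums overlapped. Ereg made up 15.9%, 39.1% and 43.5% of the ligand sum in WT and 55.7%, 54.0% and 64.4% in KO, with no overlap. Areg made up 20.7%, 8.54% and 7.06% in WT and 4.37%, 3.93% and 1.97% in KO, also with no overlap. Both shares rest on the values of Areg and Ereg already given and are no separate evidence. Epgn was the largest ligand share in WT replicate 1, at 31.3%, whereas Ereg was the largest in the other 5 libraries. Among the receptors the make-up was similar from library to library, with Egfr the smallest share in each. Egfr was at 14.5% to 20.1%, Erbb2 at 34.7% to 41.1% and Erbb3 at 40.5% to 47.9% of the receptor sum in the 6 libraries.

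**Figure D3:**
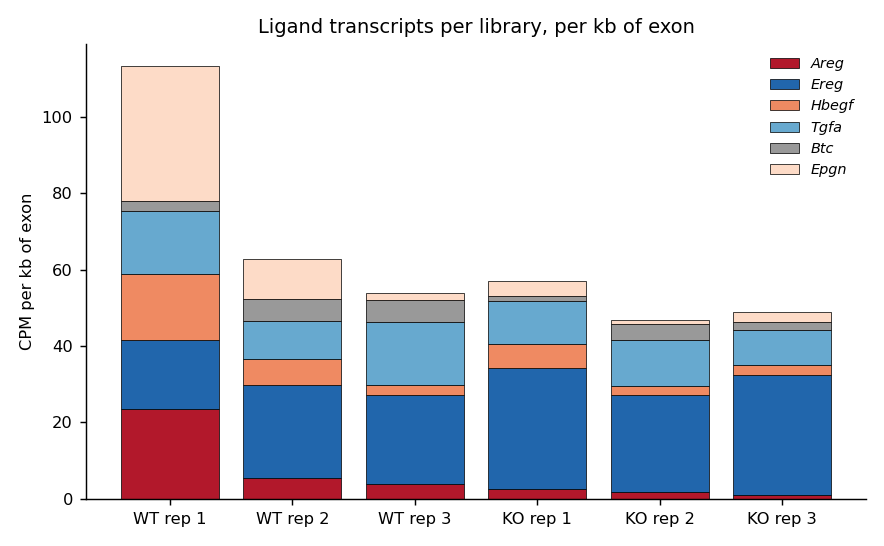
CPM per kb of exon of the 6 ligand genes, stacked for each library. WT replicate 1 reaches 113 and the other libraries 46.9 to 62.8, and the Ereg layer is the thickest in every library but WT replicate 1, where that of Epgn is.

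The table held 12 genes besides Areg that lie at least in part within 500 kb of it. These were the ligand genes Epgn, Ereg and Btc, the chemokine genes Cxcl1, Cxcl2, Cxcl3, Cxcl5, Ppbp and Pf4, and Mthfd2l, Rassf6 and Parm1. Their log2 fold changes, with Areg, ranged from -2.00 to 0.54. Only Areg and Ereg had groups that did not overlap, as did 7.84% of all genes tested. Both had already been picked out above for this, and the window was set around Areg. Their lying 45.9 kb apart is therefore no separate evidence, and an effect of position was not tested. Cxcl1, Cxcl2, Cxcl3 and Cxcl5, which encode chemokines that attract neutrophils, were highest in WT replicate 1, as were Areg and Epgn. Of the other chemokine genes, Ppbp was highest in WT replicate 3 and Pf4 in WT replicate 2. Cxcl2 was at 36.8, 3.05 and 0 CPM in WT and at 2.12, 0 and 2.64 CPM in KO. Btc and Parm1 on one side of Areg, and Rassf6 on the other, were also highest in WT replicate 3, Mthfd2l in KO replicate 2 and Ereg in KO replicate 1. None of the 9 genes that are not ligands had an unadjusted p below 0.05 by limma.

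**Figure D4:**
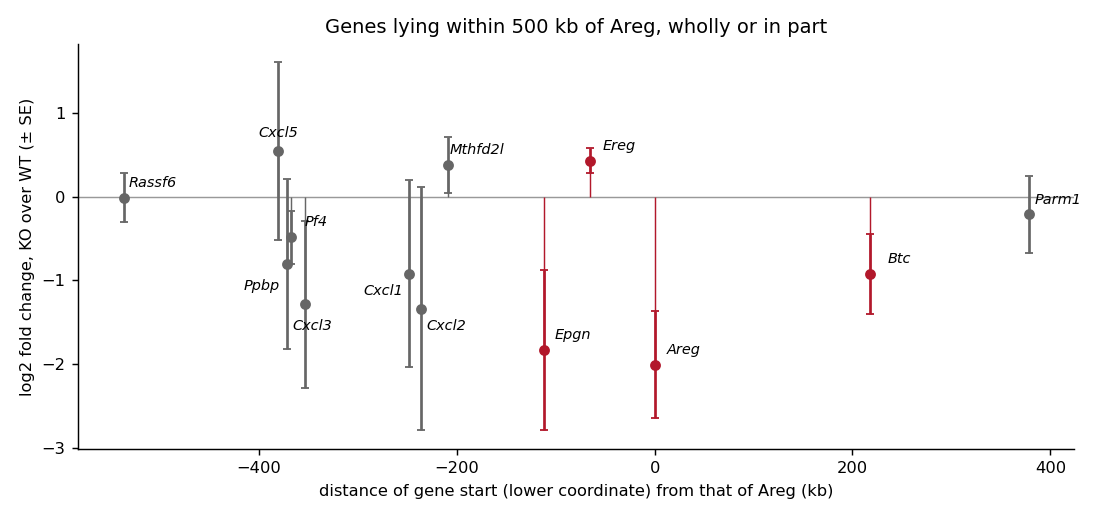
log2 fold change (KO over WT, point, with SE as the bar) of the 13 genes against the distance of their lower coordinate from that of Areg in kb; ligand genes are in red. Areg is lowest at -2.00, Epgn is at -1.83, and Ereg between them is at 0.43.

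WT replicate 1 was the highest library for Areg, Hbegf, Tgfa and Epgn, 4 of the 10 genes, against 18.0% of all genes tested. For Tgfa this was nearly a tie, at 107.955 CPM in WT replicate 1 and 107.656 CPM in WT replicate 3. WT replicate 1 was also the highest library for all 7 genes of wound keratinocytes and for 6 of the 7 neutrophil genes found (3 of 10 listed, Ly6g, Ngp and Camp, were not in the table). Neutrophil genes summed to 549.7, 189.8 and 55.2 CPM in WT and to 208, 109.6 and 109 CPM in KO, and of them Mmp8 was at 0 in at least 1 library. Areg, Hbegf and Epgn followed the same order of WT libraries as both sums, with replicate 1 highest and replicate 3 lowest. When the hair follicle score was added to the fit, Areg was at -1.62 (unadjusted p = 0.0223 by limma), Ereg at 0.41 (unadjusted p = 0.0381), Epgn at -0.82 (unadjusted p = 0.114), Hbegf at -0.38 (unadjusted p = 0.4003), Btc at -1.18 (unadjusted p = 0.0256) and Tgfa at -0.49 (unadjusted p = 0.0401). With the wound keratinocyte score as a covariate, an alternative chosen after seeing the data, Areg was at -1.87 (unadjusted p = 0.00440 by limma), Ereg at 0.42 (unadjusted p = 0.0215), Epgn at -1.53 (unadjusted p = 0.000589), Hbegf at -0.79 (unadjusted p = 0.0144) and Btc at -1.03 (unadjusted p = 0.0150). Tgfa was at -0.40 in that fit (unadjusted p = 0.0827 by limma). Genes of basal keratinocytes (8 of 8 found), the cells that carry most EGFR in epidermis, summed to 14471 to 19696 CPM in WT and 17255 to 21206 CPM in KO. Those of regulatory T cells and type 2 innate lymphoid cells, immune cells that can make amphiregulin, summed to 366 to 523 CPM in WT and 486 to 560.4 CPM in KO (8 of 9 found). Nearly all of that sum was Gata3 (251 to 415 CPM) and Ikzf2 (87.7 to 126 CPM), and its more specific genes were low, with Foxp3 at 0 to 2.17, Il2ra at 1.45 to 2.64 and Ctla4 at 0.165 to 0.881 CPM, so the sum says little about these cells. Mast cell genes (8 of 8 found) summed to 148 to 177 CPM in WT and 97.7 to 184 CPM in KO, and macrophage genes (8 of 8 found) to 459 to 932 CPM and 438 to 881 CPM. The part of these cells in the ligand values was not tested.

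**Figure D5:**
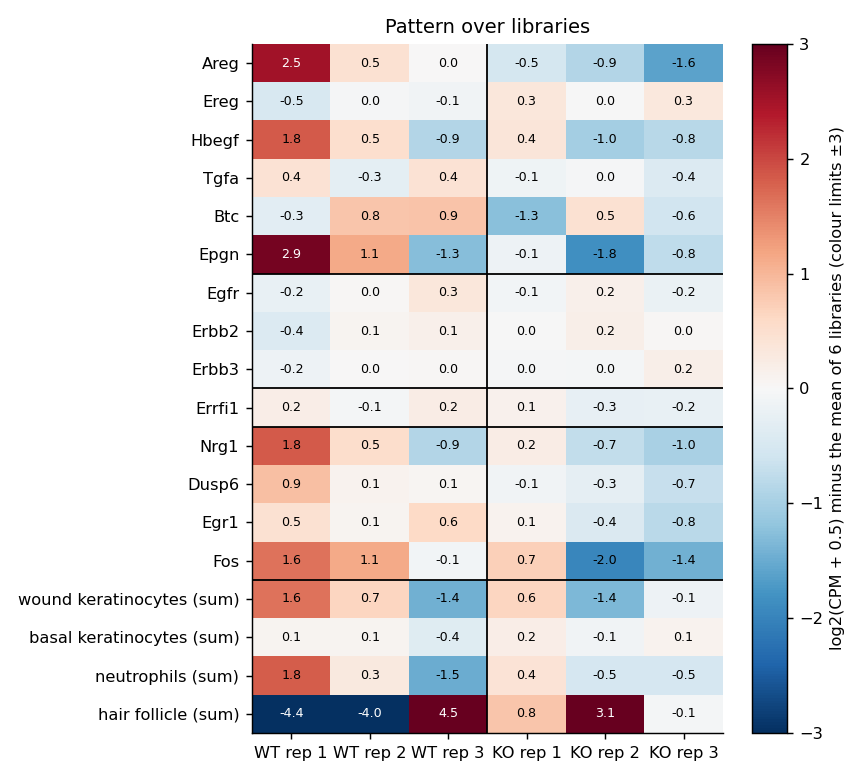
log2(CPM + 0.5) of each gene, and log2 of summed CPM of 4 marker lists, minus the mean over the 6 libraries; rows are genes or lists, columns libraries, red is above and blue below the mean. Areg (2.52), Epgn (2.88), Hbegf (1.84) and Nrg1 (1.84) are high in WT replicate 1, as are the wound keratinocyte (1.64) and neutrophil (1.81) sums, whereas Ereg (-0.48) is lowest there.

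Other genes of the pathway were read from 5 lists with 80 genes, of which 78 were tested. Of these, 3 were lower and 0 higher at an unadjusted p below 0.05 by limma, none passed the adjusted level, and the median log2 fold change was -0.06. Over all genes 1.82% were lower and 1.06% higher. All 3 came from the ERK feedback and target genes, of which 20 were tested, 19 were negative and the median was -0.31, where 56.7% of all genes were negative. Dusp6, a phosphatase that switches off ERK, was the only 1 of the 78 genes without overlap of the groups, against 7.84% of all genes. It was at 152, 87.3 and 84.2 CPM in WT and at 75.2, 66.7 and 50.2 CPM in KO. Its log2 fold change was -0.71 (SE 0.25, unadjusted p = 0.0216, adjusted p = 0.998 by limma). It was -0.44 without WT replicate 1 (unadjusted p = 0.0484 by limma) and -0.55 without KO replicate 3 (unadjusted p = 0.0844 by limma). Egr1, an immediate early transcription factor, was at 205, 157 and 222 CPM in WT and at 159, 109 and 84.3 CPM in KO, where KO replicate 1 overlapped WT (log2 fold change -0.76, SE 0.23, unadjusted p = 0.0123 by limma). Fos, a subunit of AP-1, was at 179, 128 and 54.7 CPM in WT and at 95.6, 14.6 and 20.9 CPM in KO (log2 fold change -1.79, SE 0.70, unadjusted p = 0.0336 by limma), and its p was above 0.05 when replicate 1 (0.110) or 2 (0.0915) of WT, or replicate 2 (0.117) or 3 (0.113) of KO, was left out. Of the 20 genes, 13 were highest in WT replicate 1, the highest library for 18.0% of all genes.

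The other 4 lists held no gene at an unadjusted p below 0.05. Of 5 ERBB family genes outside the 10, 4 were negative, from Nrg1 (-0.99) to Erbb4 (0.17). Nrg1, the ERBB3 and ERBB4 ligand neuregulin, was at 37.8, 15.1 and 5.28 CPM in WT and at 12.0, 5.88 and 4.99 CPM in KO. Of 10 genes that release the ligands from the membrane or hold that release back, 3 were negative, with a range from -0.08 (Adam9) to 0.30 (Adam12). Of 26 adaptors and kinases downstream of the receptors, 18 were negative, with a range from -0.15 (Map2k1) to 0.16 (Plcg1). Of 17 genes of receptor inhibition and turnover, 11 were negative, with a range from -0.26 (Socs5) to 0.14 (Cblc).

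The pattern of Areg over the 6 libraries was most like that of Lars2, Has2, Nlrp3, Fam83a and Ccl4 among 14305 genes. Likeness was the root mean square difference of the log2 values after each gene was centred on its own mean, and it was 0.368, 0.493, 0.514, 0.521 and 0.530 for these genes, against a standard deviation of 1.30 in Areg itself. Lars2, which encodes a mitochondrial leucyl-tRNA synthetase, was at 1549, 298 and 151 CPM in WT and at 91.6, 74.8 and 59.3 CPM in KO. Has2, a hyaluronan synthase, was at 33.4, 14.4 and 6.26 CPM in WT and at 8.65, 5.88 and 4.41 CPM in KO. Ccl4 was at 5.57, 0.814 and 0 CPM in WT and at 0.152, 0.280 and 0 CPM in KO. It was near 0 outside WT replicate 1, so its likeness to Areg rests mostly on that library. Nlrp3 was at 35.8, 9.56 and 2.80 CPM in WT and at 5.16, 4.76 and 2.35 CPM in KO. Fam83a was at 28.1, 18.7 and 7.25 CPM in WT and at 8.65, 3.64 and 1.76 CPM in KO. Like Areg, each of these genes was highest in WT replicate 1, so that library weighs on every one of these likenesses. Among the other 9 genes Hbegf ranked closest to Areg, at 15, and Epgn came next at 53, while Ereg ranked 13186. The 6 points of each pattern are the same libraries, so that depth and tissue make-up are shared.

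Ereg was most like Faah, Mfap3l, Gjb5, Slc26a2 and Lynx1, with differences of 0.0625 to 0.0828 and a standard deviation of 0.276 in Ereg itself. Their means were also higher in KO, which follows from choosing them for a pattern like that of Ereg. Erbb3 ranked 698 and Erbb2 954 by likeness to Ereg. The gene most like Hbegf was Nrg1 (0.142), an EGF-family ligand gene of another chromosome, and WT replicate 1 was highest for both. Their like order of values follows from choosing the gene most like Hbegf.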

How the data were processed

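Punch biopsies of bitten ear skin from 3 WT and 3 KO mice had been sequenced as paired-end TruSeq libraries (Illumina HiSeq). The authors aligned the reads to mm10 with STAR (2.7.3a) in Partek Flow, quantified transcripts by expectation-maximization, divided by the library total and added 0.0001, so the deposited values are CPM. Use of read strand in counting: not given in the sources used here. Implied reads were recovered from the step between low values: 91.8% to 92.6% of values under 20 reads were whole reads to within 0.1, so implied reads are estimates and cover counting error only.

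The 14306 of 15667 genes averaging 1 CPM or more were tested as log2(CPM + 0.5) by limma (3.58.1, R 4.3.3, lmFit and eBayes with trend), two-sided, with no covariate and Benjamini-Hochberg adjustment over all of them. This fit was first tested on simulated data, drawn with the same dispersion for every gene and without tissue differences between libraries. That test therefore does not cover genes that spread as widely within a group as Areg, Epgn or Hbegf. An exact permutation test of 3 against 3 libraries cannot give a p below 0.1.

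The 10 genes, pathway and marker lists were chosen with earlier results of these data known. Named genes were the 10, Adipoq, pathway genes at an unadjusted p below 0.05 (otherwise the extremes of each list), genes within 500 kb of Areg, and the 5 most like Areg and the 5 most like Ereg. Nrg1 as the gene most like Hbegf was chosen after its values were seen. Exon lengths came from GENCODE M21 and promoters from RefSeq (GRCm38.p6). Groups came from the labels, which give no pairing of mice. Alternatives were other pseudocounts (0.1 and 2), no filter or a filter at 5 CPM, other scalings, no trend, robust variance, array weights, voom, covariates, a replicate block and leaving out each library.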

Additional observations from a re-analysis of the deposited data

How the results depend on the processing

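Over 20 alternatives (1 of them, the wound keratinocyte score as a covariate, chosen after seeing the data), the log2 fold changes of the 10 genes kept their direction and their side of an unadjusted p of 0.05 in 174 cases, went below that p in 17, went above it in 6 and changed sign in 3. For the other 31 named genes, including the 9 genes near Areg that are not ligands, these counts were 533, 14, 42 and 21, and a gene under a filter had no value there. Areg stayed negative and Ereg positive throughout. Leaving out single libraries gave -2.49 to -1.24 for Areg and 0.29 to 0.54 for Ereg, and without the trend Ereg had an unadjusted p of 0.0516 by limma. The smallest adjusted p of the 10 genes under any alternative was 0.184.

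Of the 10 genes, 1 was lower at an unadjusted p below 0.05, against 3 with array weights, 3 with the hair follicle score and 4 with the wound keratinocyte score as a covariate, and 0 to 3 when single libraries were left out (0 without KO replicate 3, 3 without WT replicate 3). The 1 higher gene became 0 without the trend, and 0 to 1 when single libraries were left out. Over all genes, 260 were lower, against 420 with array weights, 577 with the hair follicle score, 438 with the wound keratinocyte score and 147 to 395 without single libraries. Higher genes numbered 152, against 240 with quantile normalization, 306 with the hair follicle score, 294 with the wound keratinocyte score and 89 to 313 without single libraries. Genes at an adjusted p below 0.05 numbered 2, against 9 with the hair follicle score, 8 with the wound keratinocyte score, 1 with voom and 0 to 16 without single libraries. Lower genes were 63.1% of those at an unadjusted p below 0.05, against 50.6% with median-of-ratios scaling and 43.5% with quantile normalization. The cause of these shifts was not tested.

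Leaving out single libraries changed a sign for Egfr (-0.23 to 0.054, positive without WT replicate 3), Erbb2 (-0.046 to 0.23, negative without WT replicate 1), Erbb3 (-0.0065 to 0.11, negative without KO replicate 3), Erbb4 (-0.14 to 0.35, negative without WT replicate 1 or KO replicate 3), Cblc (-0.018 to 0.34, negative without WT replicate 3), Adam9 (-0.20 to 0.067, positive without WT replicate 2) and Adam12 (-0.068 to 0.63, negative without KO replicate 2). Adam12 was also at -0.028 with the hair follicle score. Near Areg the ranges were -0.13 to 0.16 for Rassf6 (positive without WT replicate 3 or KO replicate 1), -0.54 to 1.48 for Cxcl5 (negative without WT replicate 3), -1.42 to 0.23 for Ppbp (positive without WT replicate 3 or KO replicate 1), -1.95 to 0.19 for Cxcl1 and -2.84 to 0.27 for Cxcl2 (both positive without WT replicate 1), and -0.61 to 0.13 for Parm1 (positive without WT replicate 3 or KO replicate 1). Rassf6 was also at 0.013 with median-of-ratios scaling, 0.039 with quantile normalization, 0.0049 with a total without Rn45s and 0.081 with array weights, Cxcl2 at 0.13 with the hair follicle score and Parm1 at 0.089 with array weights.

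Whether replicate numbers pair the mice is not known. The deviations of libraries with the same number from their group means correlated at 0.376, -0.306 and -0.222. Of these only WT and KO replicate 1 each correlated best with the library of its own number. With 3 libraries per group that also differed in tissue make-up, these values cannot show whether mice were paired. With the number as a replicate block, 4 of the 10 genes were lower at an unadjusted p below 0.05 by limma (Areg, Btc, Hbegf and Epgn), and 414 genes in all. The lowest counts, 4 to 32 reads for Areg outside WT replicate 1, limit its precision.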
